A study of Mus musculus with 29 samples.

Results

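Oxidative phosphorylation is carried out by 5 protein complexes of the inner mitochondrial membrane. Complex I (NADH dehydrogenase) and complex II (succinate dehydrogenase) pass electrons to ubiquinone, complex III (the cytochrome bc1 complex) passes them on to cytochrome c, complex IV (cytochrome c oxidase) reduces oxygen, and complex V (ATP synthase) uses the proton gradient built by complexes I, III and IV to make ATP. Most subunits are encoded in the nucleus and imported, while the remainder come from the mitochondrial genome, and white adipose tissue is known for a lower mitochondrial content than brown fat. The genes described here are the nuclear-encoded subunit genes whose mouse symbols follow the Nduf, Sdh, Uqcr, Cox and Atp5 naming series. The naming rule took 85 of 56953 rows of the count table (84 symbols, since Atp5o has 2 rows), namely 37 of complex I, 4 of complex II, 8 of complex III, 18 of complex IV and 18 of complex V. The rule used names only and no measured value. It counts Ndufa4, a cytochrome c oxidase-associated protein that was first assigned to complex I, under complex I, and it leaves out subunits with other names such as Cyc1.

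The libraries come from crude stromal vascular fraction (SVF), the non-adipocyte cells released by digesting adipose tissue, of adult C57BL6/J mice. SVF of inguinal (iWAT) or perigonadal (pgWAT) white fat was grown for 4 days in PM1 medium with 1 nM basic FGF, with no untreated culture, and RNA was read by bulk Smart-seq3. The 29 libraries are 19 wells of iWAT, from males (10) and females (9), and 10 wells of pgWAT, from females (6) and males (4). These sizes are those of the labels, and the group sizes stated in the methods are different. All groups share strain, medium and growth factor. The methods describe wells as technical replicates drawn from a small number of experiments, and no label ties a well to an experiment, so the p-values below measure the spread between wells, not between animals. In bulk cultures, fewer cells of a type and less RNA per cell cannot be told apart.

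Libraries held 315316 to 1102234 counts, and members took 1.42% to 2.14% of them. Fibroblast markers summed to between 6382 and 22743 CPM (edgeR's unit of counts relative to a common library total, here scaled by TMM factors), whereas adipocyte markers reached at most 43.0 CPM and the thermogenic marker Ucp1 had 1 count in all. In 5 pgWAT libraries the sex-linked counts went against the label or were mixed. Those labelled pgWAT male 2 and 4 had 24 and 60 Xist counts and 1 and 0 counts over 4 Y-linked genes, whereas those labelled pgWAT female 2 and 3 had 0 Xist counts and 23 and 26 Y-linked counts. The library labelled pgWAT female 1 had both (7 and 10). Labels were kept. The main depot results on the members are given with and without these 5 libraries, whereas those on other gene lists use all libraries. The libraries labelled pgWAT male also fell into pairs: male 1 and 3 had summed macrophage markers of 7154 and 7751 CPM and summed proliferation markers of 1442 and 1509 CPM, against 1119 and 1068 CPM and 800 and 651 CPM in male 2 and 4. The labels also give each library's well, and the column of that well (7 to 10) is spread unevenly over the groups. The 5 doubted libraries are all the pgWAT wells of columns 9 and 10, and the other pgWAT libraries stood in columns 7 and 8. Within pgWAT, results without the 5 libraries therefore cannot tell doubt about the sex label from well column.

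Of the 85 rows, 76 passed the count filter and were tested together with all other genes (8853 in all). In complex I the mean over 29 libraries was highest for Ndufa4 at 936 CPM per kb and lowest for Ndufab1, the mitochondrial acyl carrier protein, at 15.6 CPM per kb. In complex II the iron-sulfur subunit Sdhb was highest at 305 and the membrane anchor Sdhc lowest at 46.1 CPM per kb, with Sdhd, the other anchor, at 192 and Sdha, the flavoprotein, at 136 CPM per kb. In complex III the small subunit Uqcr11 stood highest at 637 and Uqcrfs1, the Rieske iron-sulfur protein, lowest at 10.4 CPM per kb. In complex IV Cox6b1 was highest at 1394 CPM per kb, the highest level per kilobase of any member, followed by Cox4i1 at 1116, and Cox5a was lowest among those tested at 55.5 CPM per kb. In complex V the peripheral stalk subunit Atp5j was highest at 600 CPM per kb and Atp5g1, which encodes the c subunit of the membrane rotor, lowest at 112 CPM per kb. Within each complex the highest and lowest tested members were thus several-fold apart, on the scale of mean CPM per kb. The length used was the median over a gene's protein-coding transcripts in the basic set of GENCODE vM21. The ranks depend on that length as well as on counts. Atp5g1 held 5371 counts in all, against 1950 for Atp5k of the same complex, and Ndufab1 held 729, against 692 for Ndufb4.

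**Figure D1:**
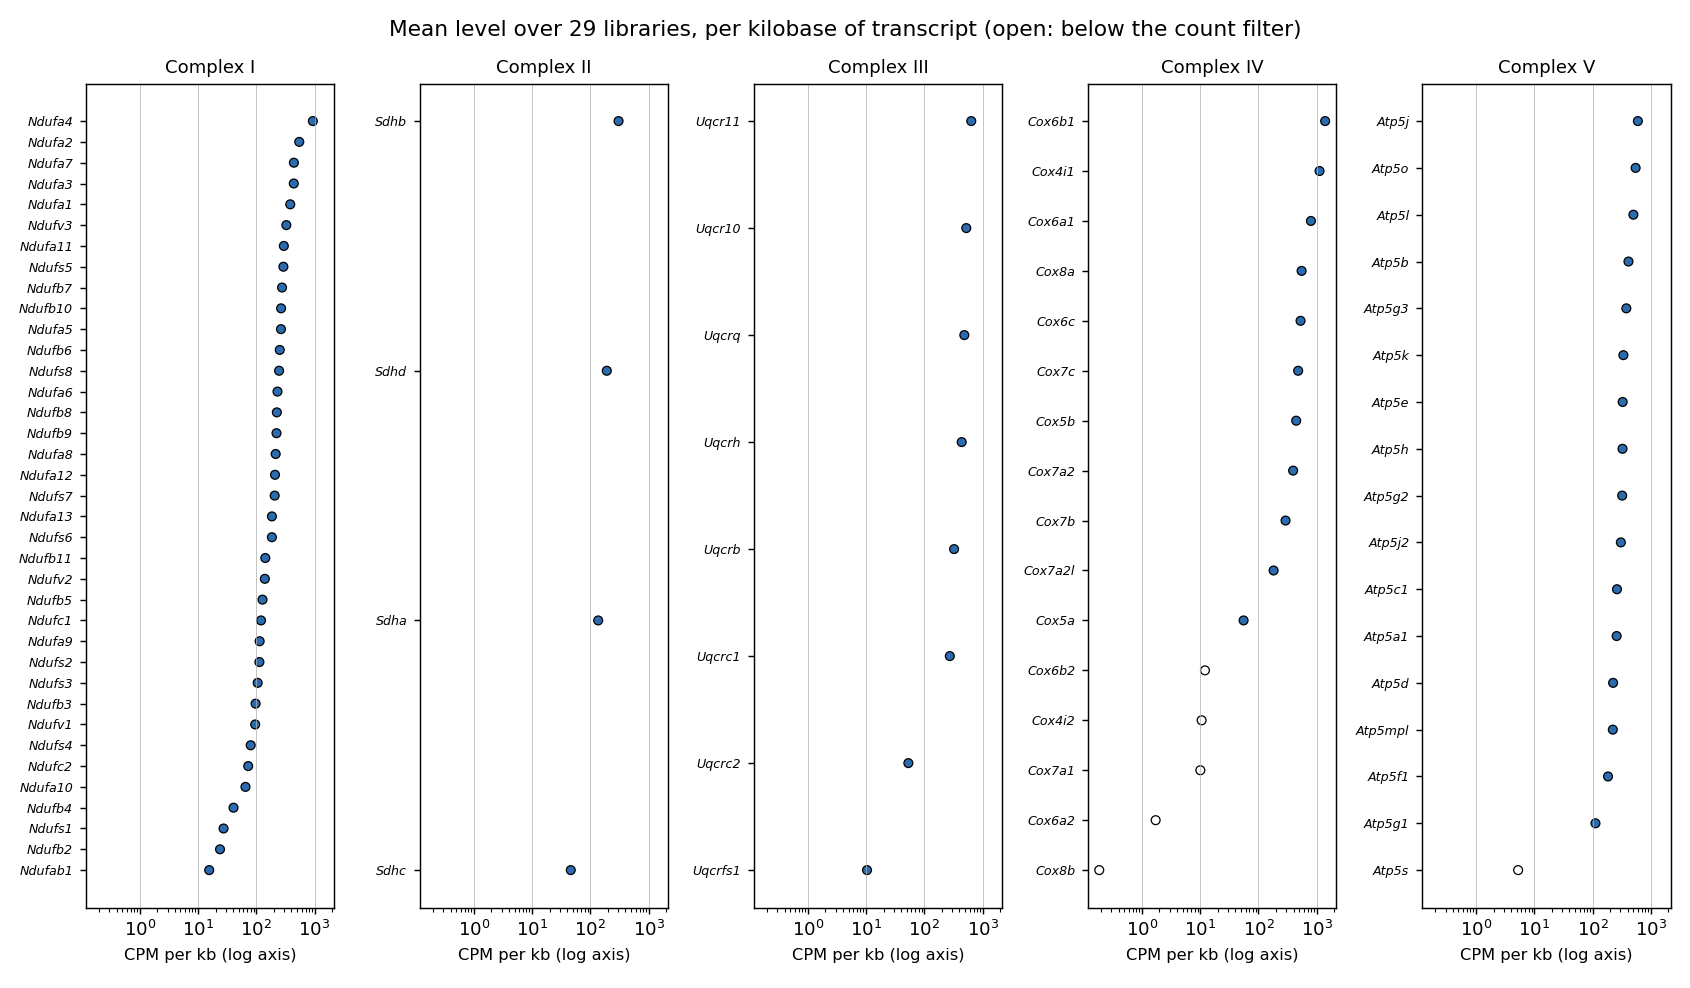
Mean level of each member over 29 libraries, in CPM per kilobase of transcript on a log axis, by complex, where filled points were tested and open points fell below the count filter and members at 0 are not drawn. Cox6b1 stands highest at 1394 CPM per kb, and Uqcrfs1 is the lowest tested member at 10.4 CPM per kb.

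The isoforms of complex IV that are known from other tissues were at or near the limit of detection. Complex IV subunits 4, 6a, 6b, 7a, 7b and 8 each exist in a common form and in forms known from lung, muscle or testis. The common forms were abundant, with means of 842 CPM for Cox4i1, 454 CPM for Cox6a1, 677 CPM for Cox6b1, 259 CPM for Cox7a2, 292 CPM for Cox7b and 302 CPM for Cox8a. Cox8c and Cox7b2 had no count in any library, Cox8b had 2 counts in all (1 in iWAT and 1 in pgWAT), and Cox6a2 had 11 counts over 19 iWAT libraries and 8 over 10 pgWAT libraries. A count of 0 allows up to 2.72 to 9.51 CPM in a single library (3 counts, counting error only). Cox6b2, a testis form, had 84 counts in iWAT and 20 in pgWAT, and was at 0 in 2 and 4 libraries.

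Cox4i2, a form known from lung and from cells at low oxygen, and Cox7a1, the heart and muscle form, had higher means in pgWAT at very low levels, and for Cox4i2 this rested on the 5 pgWAT libraries whose sex labels are in doubt. Cox4i2 stood between 1.45 and 12.7 CPM in iWAT (median 3.72, 59 counts) and between 2.97 and 30.1 CPM in pgWAT (median 9.71, 61 counts). Cox7a1 stood between 0 and 12.7 CPM in iWAT (median 1.99, 33 counts, 5 libraries at 0) and between 1.48 and 17.5 CPM in pgWAT (median 7.23, 42 counts). The depots overlapped for both. Neither passed the count filter, and in the fit without it Cox4i2 rose by 1.16 ± 0.37 (SE) and Cox7a1 by 1.48 ± 0.47 on the log2 scale (edgeR quasi-likelihood, FDR 0.0196 and 0.0173, background 13.9% called). Without the 5 libraries, Cox4i2 averaged 6.16 ± 2.67 CPM (SD, n = 5) in pgWAT against 5.18 ± 3.38 CPM (SD, n = 19) in iWAT, and Cox7a1 averaged 5.88 ± 4.09 CPM against 2.61 ± 3.02 CPM. Those 5 libraries held Cox4i2 at 9.66 to 30.1 CPM. Cox4i2 passed the count filter without pgWAT male 2 and 4, and its difference was then 1.00 ± 0.44 (FDR 0.0924). Between females it was called higher in that fit (1.78 ± 0.49, FDR 0.00612). It also passed the filter without pgWAT male 1 and 3, and was then called higher between depots (1.31 ± 0.40, FDR 0.0106). Both fits kept pgWAT female 1, 2 and 3, which are among the 5 libraries. Cox7a2l, the Cox7a-related protein known for its part in supercomplexes, had a difference of 0.25 ± 0.12 (FDR 0.0852). Outside the naming rule, and chosen after its values were seen, Ndufa4l2, a relative of Ndufa4 known to be induced at low oxygen, rose from 22.2 ± 19.9 CPM (SD, n = 19) in iWAT to 261 ± 114 CPM (SD, n = 10) in pgWAT (log2 fold change 3.47 ± 0.30, FDR 2.18e-11). It stood at 305 to 404 CPM in the 5 doubted libraries and at 83.4 to 254 CPM in the other pgWAT libraries, and without the 5 it rose by 2.63 ± 0.33 (FDR 4.46e-07). Markers of pericytes, which also express Ndufa4l2 and Cox4i2, passed the filter in 0 of 4 cases and summed to at most 32.3 CPM in iWAT and 22.5 CPM in pgWAT. All smooth muscle markers tested were higher in pgWAT, among them Mylk (2.94 ± 0.25, FDR 1.89e-11) and Tagln (1.52 ± 0.18, FDR 3.83e-08). The part of any cell type in these differences was not tested. Atp5s (152 counts in all) and the second Atp5o row (0 counts) were the other members not tested.

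Between depots, 17 of 76 tested members differed, and all but 1 of them were lower in pgWAT. The test was edgeR's quasi-likelihood F test on pgWAT minus iWAT with the sexes weighted equally, at a Benjamini-Hochberg FDR below 0.05 over all genes. Over all 8853 genes tested, 38.1% were called (20.2% higher and 17.9% lower), against 22.4% of the members (1.32% higher and 21.1% lower). Members were thus called less often than the background in total, and the share called lower was near the background share. The changes were small: 74 of 76 members differed by less than 0.5 on the log2 scale (97.4%, against 68.4% of all genes), and those called lower fell by 1.16-fold to 1.38-fold. The median difference was -0.12 over the members and 0.01 over all genes. A negative difference was seen in 55 of 76 members, against 4360 of all 8853 genes. DESeq2 called 4 members higher and 17 lower and limma-voom 5 higher and 17 lower, and both added Ndufa6, Ndufa13 and Uqcrq to the higher ones. The share of all genes called by these tools is not given here, so their counts have no background beside them.

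The number of calls moved with few libraries. Without the 5 pgWAT libraries whose sex labels are in doubt, 7 of 77 members were called (2 higher and 5 lower, background 23.7%) and the median difference was -0.01. Without pgWAT male 2 and 4 alone, 6 of 77 were called (1 higher and 5 lower, background 27.5%), and without pgWAT male 1 and 3 the count was 31 of 77 (4 higher and 27 lower, background 35.7%). Leaving out pgWAT male 2 or pgWAT male 4 singly gave 11 calls, but the share of all genes called is not given for these fits. Of the 17 calls, 4 were kept under all 40 alternatives tried: Ndufv3, which was higher in pgWAT, and Sdhb, Atp5a1 and Ndufa9, which were lower. The other 13 fell short of the threshold under at least 1 alternative, and none changed sign.

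**Figure D2:**
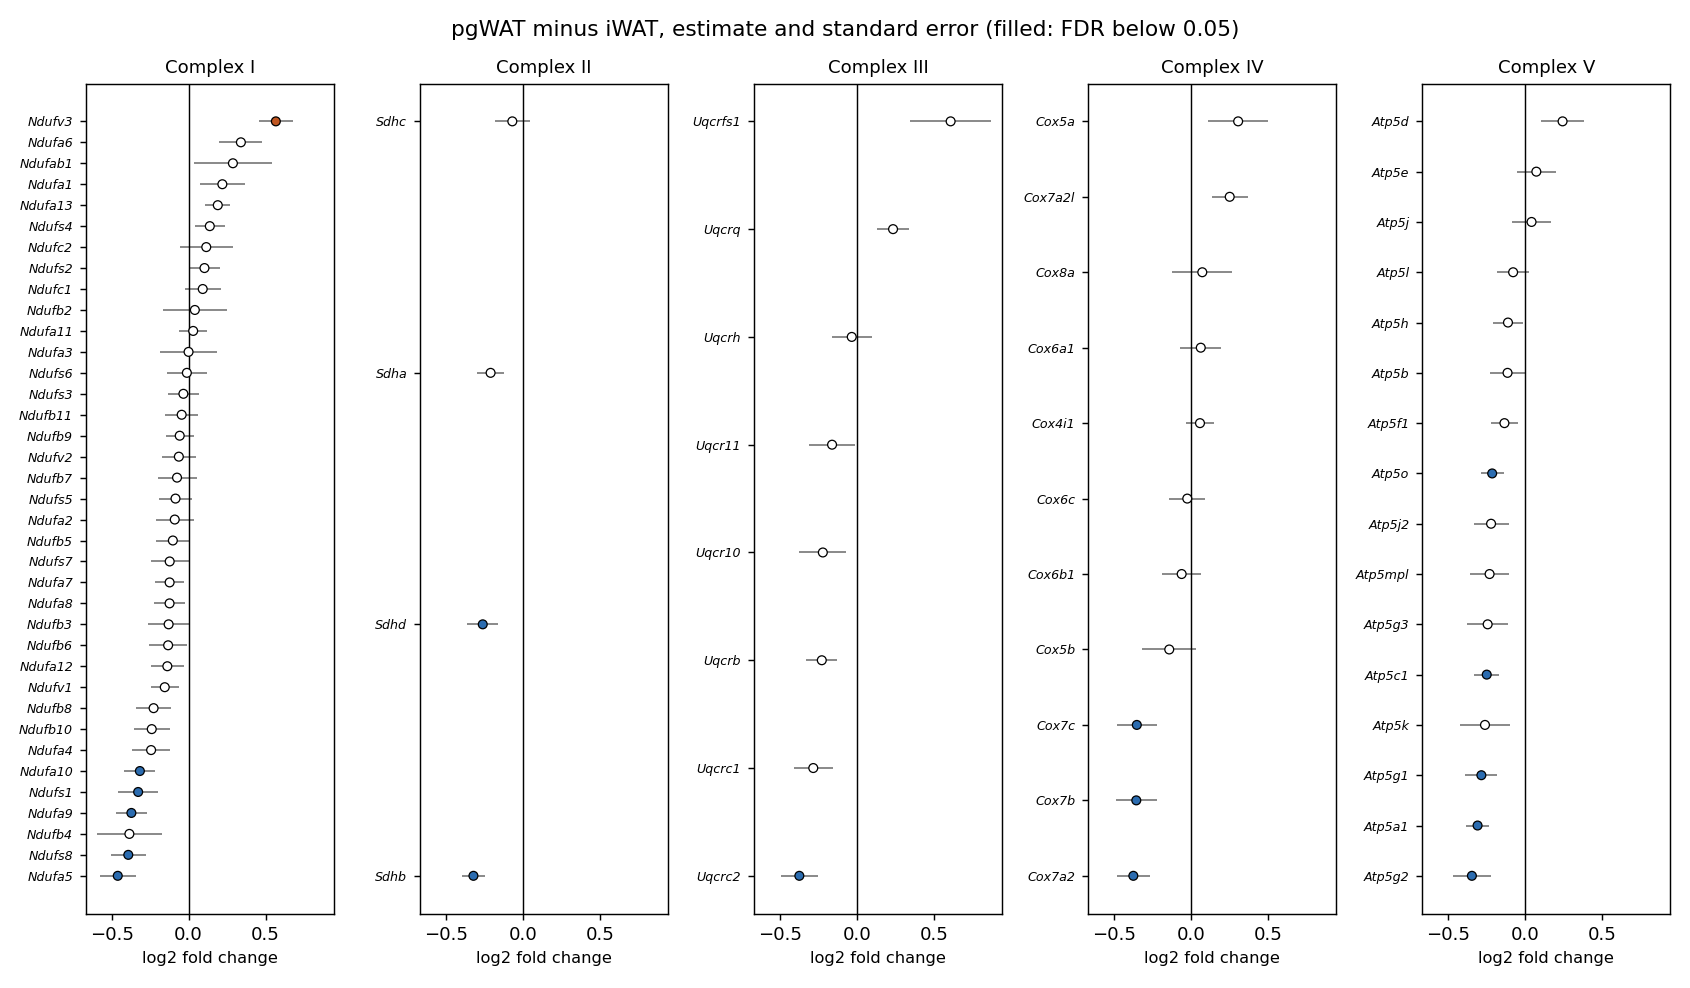
Difference between depots (pgWAT minus iWAT, log2 fold change) of the 76 tested members, by complex, where points are estimates, bars are standard errors and filled points passed an FDR of 0.05. In all, 16 members are filled on the left of 0 and Ndufv3 alone is filled on the right, and 74 points lie within 0.5 of 0.

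In complex I, 5 of 37 tested subunits were lower and 1 was higher in pgWAT, and the median difference was -0.08. Ndufv3, a small subunit of the NADH-oxidising module, went against the others. It ranged from 106 to 249 CPM in iWAT (median 177, 19 libraries) and from 220 to 324 CPM in pgWAT (median 277, 10 libraries), and its 4 pgWAT male values were 294, 220, 282 and 225 CPM. The depots overlapped only between 220 and 249 CPM, and every pgWAT library was above the iWAT mean. The log2 fold change was 0.57 ± 0.11 (SE, FDR 0.00011), a 1.48-fold increase. The share of all genes with every pgWAT library on the same side of the iWAT mean is not given, here or below.

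Ndufa9, a subunit at the junction of the peripheral and membrane arms, ranged from 122 to 255 CPM in iWAT (median 163) and from 95.0 to 162 CPM in pgWAT (median 129). All 10 pgWAT libraries were below the iWAT mean, although the ranges overlapped, and it fell by 0.37 ± 0.10 on the log2 scale (FDR 0.004). Ndufa5, a small subunit of the peripheral arm, showed the largest called decrease, from 110 to 246 CPM (median 169) in iWAT to 80.1 to 184 CPM (median 118) in pgWAT. Its 4 pgWAT male libraries read 184, 98.7, 162 and 105 CPM, so that male 1 and 3 stood among the iWAT values. It fell by 0.46 ± 0.12 (FDR 0.0023), and by 0.30 (FDR 0.0742) without pgWAT male 2 and 4. The core iron-sulfur subunit Ndufs8 fell by 0.39 ± 0.11 (FDR 0.00704), the membrane-arm subunit Ndufa10 by 0.32 ± 0.10 (FDR 0.0131), and Ndufs1, the large iron-sulfur core subunit, by 0.33 ± 0.13 (FDR 0.046). The Ndufs1 call was lost in 24 of 40 alternatives, limma-voom, no filter and well column among them. Counted by role, 2 of 7 core subunits and 3 of 30 supernumerary subunits were lower, with Ndufv3 the only one higher.

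In complex II, all 4 subunits had a negative difference and 2 passed the test, Sdhb and Sdhd, with a median of -0.23. Succinate dehydrogenase is also an enzyme of the citric acid cycle, and all its subunits are nuclear-encoded. Sdhb ranged from 313 to 425 CPM in iWAT (median 377) and from 243 to 335 CPM in pgWAT (median 298). Its 4 pgWAT male libraries read 335, 312, 329 and 274 CPM, and all 10 pgWAT libraries were below the iWAT mean. It fell by 0.32 ± 0.07 (FDR 0.000632), which is 1.25-fold, and by 0.26 without the 5 libraries whose sex labels are in doubt. Sdhd ranged from 195 to 322 CPM in iWAT and from 159 to 267 CPM in pgWAT and fell by 0.26 ± 0.10 (FDR 0.0372), but its FDR was 0.516 without the 5 libraries. Sdha had a difference of -0.21 ± 0.09 (FDR 0.0596) and Sdhc of -0.07 ± 0.11 (FDR 0.68).

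In complex III, 1 of 8 subunits passed the test, Uqcrc2, 1 of the core proteins, and the median was -0.19. Uqcrc2 ranged from 63.2 to 147 CPM in iWAT (median 112) and from 55.1 to 120 CPM in pgWAT (median 80.3). The 4 pgWAT male libraries read 104, 111, 65.3 and 120 CPM, while the 6 pgWAT female libraries lay between 55.1 and 84.6 CPM. It fell by 0.37 ± 0.12 (FDR 0.0145), and the FDR was 0.108 without pgWAT male 1 and 3. Uqcrfs1, at 4.62 to 26.0 CPM in iWAT and 10.4 to 31.2 CPM in pgWAT, had a positive difference of 0.61 ± 0.26 that did not pass with edgeR (FDR 0.0651). It passed with limma-voom (0.75 ± 0.25, FDR 0.0195) and without the 5 doubted libraries (0.96 ± 0.31, FDR 0.0246).

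In complex IV, 3 of 11 tested subunits were lower, the small subunits Cox7a2, Cox7b and Cox7c, and the median was -0.02. Cox7a2 ranged from 203 to 408 CPM in iWAT (median 278) and from 151 to 311 CPM in pgWAT (median 209). Its pgWAT male libraries read 311, 171, 286 and 201 CPM, with male 1 and 3 above the iWAT median. It fell by 0.37 ± 0.11 (FDR 0.00579), Cox7b by 0.35 ± 0.13 (FDR 0.0324) and Cox7c by 0.35 ± 0.13 (FDR 0.0323), and all 3 failed the test without the 5 libraries (FDR 0.368, 0.596 and 0.528). The common isoforms Cox4i1, Cox6a1, Cox6b1 and Cox8a had differences of 0.06 ± 0.09, 0.06 ± 0.13, -0.06 ± 0.13 and 0.07 ± 0.20, none past the test. Ndufa4 had a difference of -0.24 ± 0.12 (FDR 0.114).

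In complex V, 5 of 16 tested subunits were lower and the median was -0.22. Atp5a1, the alpha subunit of the catalytic head, ranged from 516 to 834 CPM in iWAT (median 726) and from 521 to 629 CPM in pgWAT (median 575). All 10 pgWAT libraries were below the iWAT mean, and the 6 pgWAT female libraries (521 to 613 CPM) did not overlap the 9 iWAT female libraries (664 to 800 CPM). The share of all genes that do not overlap is not given here, and pgWAT female 1, 2 and 3 are among the doubted libraries. Atp5a1 fell by 0.31 ± 0.08 (FDR 0.00176), which is 1.24-fold. The gamma subunit Atp5c1 fell by 0.25 ± 0.08 (FDR 0.0158), Atp5o, the stalk subunit that confers oligomycin sensitivity, by 0.21 ± 0.08 (FDR 0.0244), and the c-subunit gene Atp5g2 by 0.34 ± 0.13 (FDR 0.0293). The fifth, Atp5g1, which encodes the same mature c subunit as Atp5g2, fell by 0.28 ± 0.10 (FDR 0.0294). Atp5g2 shares 40.2% of its 31-base words with other genes, among them Gm10175, which held 596 counts against 3479 for Atp5g2, so its value is uncertain. Without the 5 doubted libraries the difference was -0.09 (FDR 0.672) for Atp5g2 and -0.22 (FDR 0.177) for Atp5g1. Atp5b, the catalytic beta subunit, had a difference of -0.11 ± 0.11 (FDR 0.455).

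**Figure D3:**
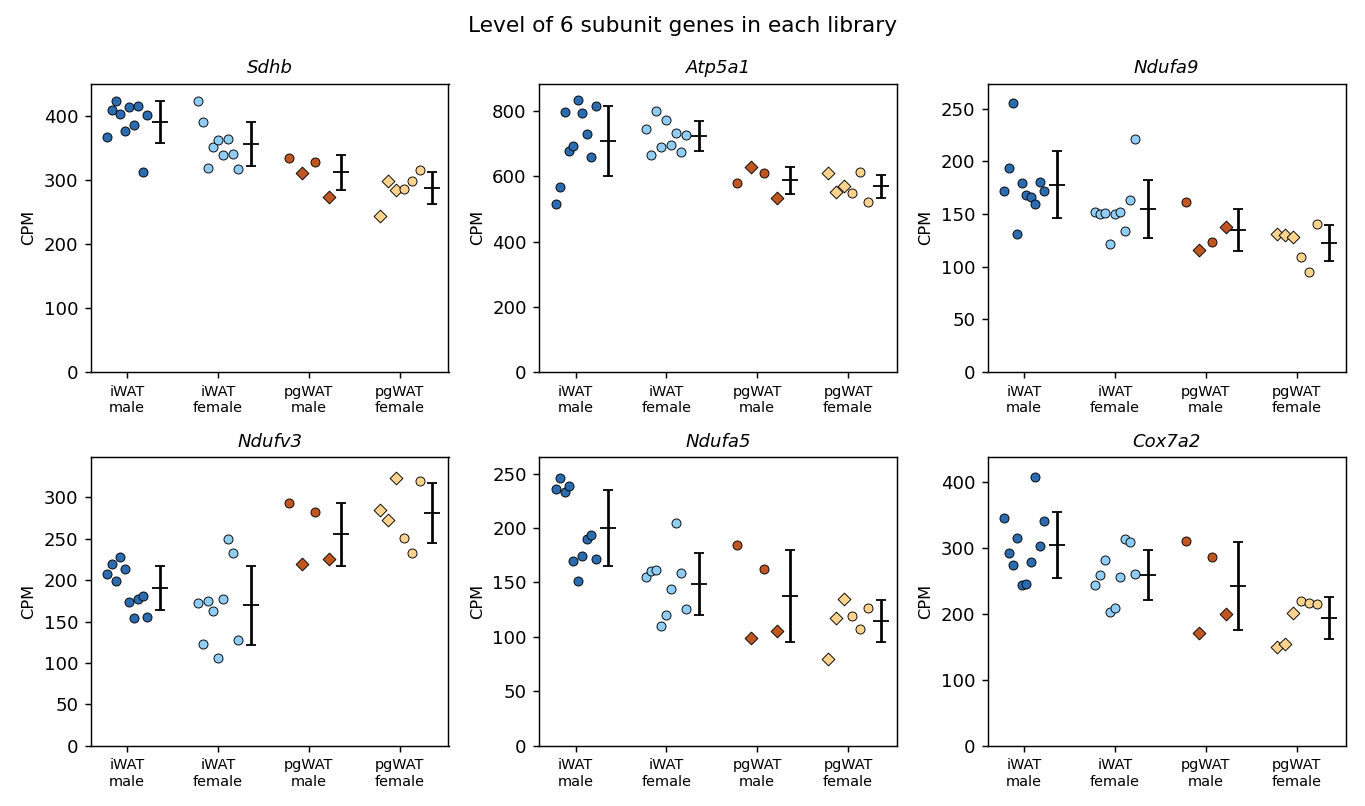
Level (CPM) of 6 members in each of 29 libraries by group, where points are libraries, diamonds mark the 5 pgWAT libraries whose sex labels are in doubt, and bars give mean and SD. Sdhb, Atp5a1 and Ndufa9 are lower in pgWAT and Ndufv3 is higher, while for Ndufa5 and Cox7a2 the pgWAT male libraries split into a high and a low pair.

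Summed over each complex, the depots overlapped. The 37 complex I genes summed to 6024 ± 629 CPM (SD, n = 19) in iWAT and 5662 ± 672 CPM (SD, n = 10) in pgWAT, complex III to 1765 ± 248 and 1577 ± 237 CPM, complex IV to 4055 ± 663 and 3870 ± 704 CPM, and complex V to 5211 ± 460 and 4643 ± 478 CPM. For complexes I, III and IV the difference was smaller than the SD within either depot, and for complex V it was larger. Complex II summed to 1132 ± 91.7 CPM in iWAT (974 to 1302) and 957 ± 104 CPM in pgWAT (797 to 1131), also a larger difference than the SD. With the means of both sexes weighted equally, unlike the means over all libraries above, the log2 ratio of pgWAT over iWAT was -0.08 for complex I, -0.24 for II, -0.14 for III, -0.05 for IV and -0.16 for V. Without the 5 libraries whose sex labels are in doubt these ratios were 0.04, -0.18, -0.01, 0.13 and -0.06, so that the sign turned for complexes I and IV. Over all complexes, the pgWAT male libraries summed to 19420, 14294, 20088 and 15268 CPM, with a larger SD (2911 CPM) than the other groups (1521 to 1855 CPM).

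**Figure D4:**
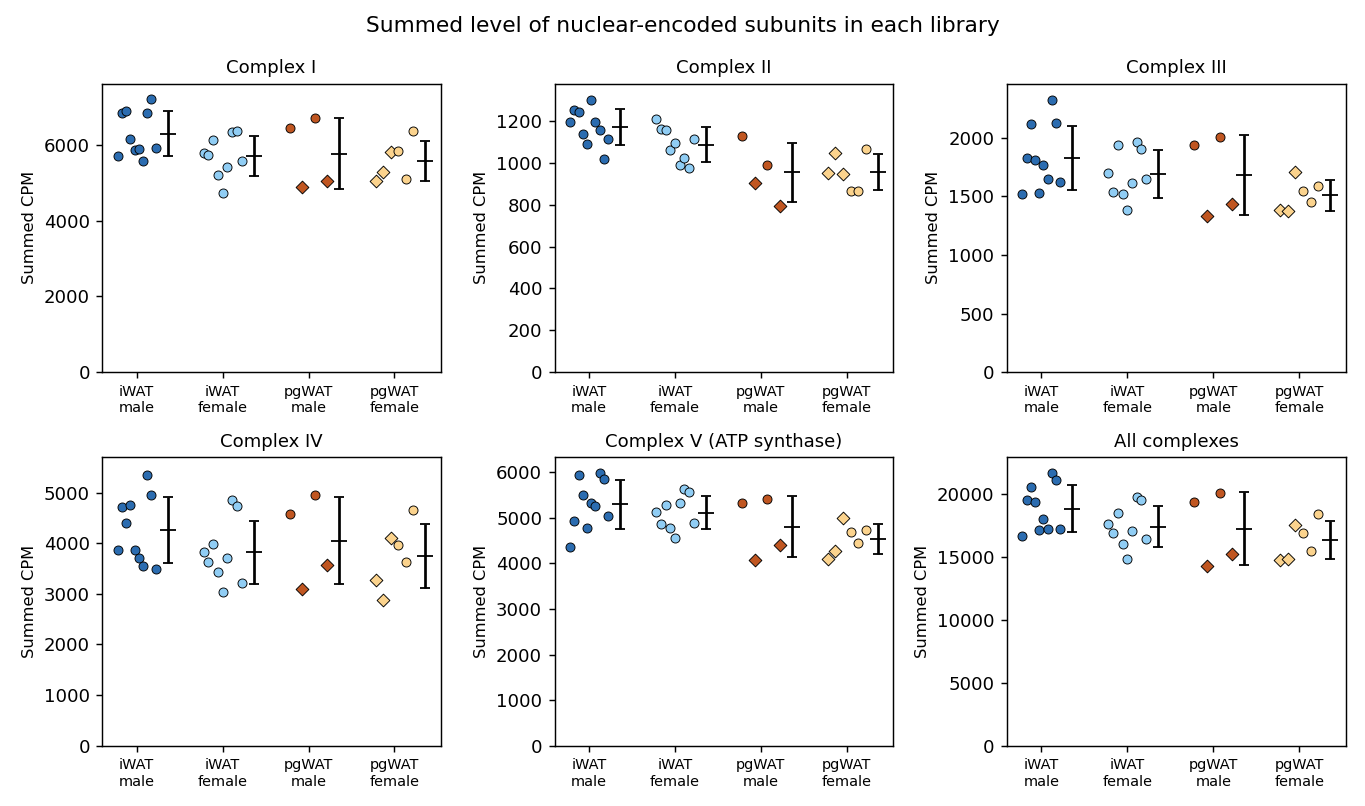
Summed CPM of the members of each complex in each library by group, where points are libraries, diamonds mark the 5 pgWAT libraries whose sex labels are in doubt, and bars give mean and SD. The groups overlap in every panel, the pgWAT male libraries split into a pair at 19420 and 20088 CPM and a pair at 14294 and 15268 CPM over all complexes, and the depots stand farthest apart in complex II.

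Within each sex the depot comparison called fewer members. Between males, 3 of 76 were lower in pgWAT and 0 higher, against 20.3% called over all genes. These were Ndufa5 (-0.54 ± 0.17, FDR 0.0242), Sdhb (-0.33 ± 0.11, FDR 0.0279) and the membrane-arm subunit Ndufb10 (-0.48 ± 0.18, FDR 0.0495). Ndufb10 read 214, 107, 228 and 103 CPM in the pgWAT male libraries and 176 to 294 CPM in iWAT male (median 230). The low values were those of pgWAT male 2 and 4, and 0 members were called between males without these 2 libraries, or without either of them (background 8.49% without both). Without pgWAT male 1 or pgWAT male 3 the count was 11 or 7. The share of all genes called is not given for the fits with a single library left out. In well column 9 alone, where pgWAT male 2 and 4 stood beside 3 iWAT male libraries, 21 of 76 members were called (2 higher and 19 lower, background 23.2%). Since the sex-linked counts of both pgWAT libraries go against their male label, this comparison may not be within 1 sex.

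Between females, 8 of 76 members were lower in pgWAT and 1 was higher, against 26.8% called over all genes. Ndufv3 rose by 0.72 ± 0.15 (FDR 0.000404). Atp5a1 fell by 0.34 ± 0.10 (FDR 0.0108), Uqcrc2 by 0.56 ± 0.17 (FDR 0.0108), Sdhb by 0.31 ± 0.10 (FDR 0.015) and Ndufs1 by 0.55 ± 0.18 (FDR 0.0204). In well column 8 alone the Ndufv3 difference was 0.25 (FDR 0.366), and the iWAT female libraries averaged 220 CPM in column 8 and 141 CPM in column 7. The calls of Atp5a1, Uqcrc2, Sdhb and Ndufs1 were also lost in column 8 alone (FDR 0.0836, 0.37, 0.292 and 0.154). Without the 5 doubted libraries 3 members were called (background 18.3%), Ndufv3 and Uqcrfs1 higher and Atp5c1 lower, and the calls of Atp5a1, Uqcrc2, Sdhb and Ndufs1 were lost. Leaving out pgWAT female 2 alone gave 5 calls, with no share of all genes given for that fit. In well column 8 alone, with 3 libraries a depot, 5 of 77 were lower and 0 higher (background 14.0%). Those 5 were Ndufa5, Uqcrc1, Atp5c1, Cox7b and Cox7a2. Whether the depots differed more in 1 sex was tested as an interaction. No member passed it (0 of 76, background 0.181%), and 0 were called with DESeq2 and 0 with limma-voom. At an unadjusted p below 0.05 there was 1 member, against 771 of all 8853 genes. The smallest p was that of Ndufb10 (-0.49 ± 0.24, FDR 0.547).

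Between iWAT males and females, no member was called, but differences leaned one way. With edgeR 0 of 76 passed (background 3.22%), and 18 were at an unadjusted p below 0.05, against 1414 of all 8853 genes. DESeq2 called 2 and limma-voom 0, and the share of all genes called by these tools is not given here. Of the 76, 56 were higher in males with a median of 0.13, against 4473 of all 8853 genes with a median of 0.01. The smallest p belonged to Ndufa5, at 151 to 246 CPM in males (median 192) and 110 to 204 CPM in females (median 155), with a difference of 0.43 ± 0.13 (FDR 0.066). With well column as a term, 13 of 76 members were called, all higher in males (background 2.88% called higher), and among the 7 male and 4 female libraries of column 7 it was 5 of 77 (background 1.26%). Of these 5, Cox6c and Cox7c encode small subunits of complex IV, Atp5k of complex V and Uqcrh of complex III, and Ndufa1 is an X-linked subunit of complex I. Cox6c ranged from 254 to 474 CPM in males (median 376) and from 210 to 325 CPM in females (median 282).

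Among the members, the differences toward males were larger for those with short transcripts. Split at their median transcript length of 746 bases, the 38 short members had a median difference of 0.20 and the 38 long members of 0.08. Of the 13 calls made with well column as a term, 12 were of short members. The median length over all tested genes was 2640 bases, and no split of all genes is given here. Between depots the medians were -0.08 for short and -0.14 for long members, with 4 and 12 called lower and 1 and 0 higher. The log2 ratio of the summed CPM of short over long members varied from -0.41 to 0.17 between libraries. In column 7 it averaged 0.01 in 7 iWAT male libraries and -0.30 in 4 iWAT female libraries, and in column 8 it averaged -0.03 in 3 iWAT female libraries. In column 9 it averaged -0.21 in 3 iWAT male libraries and was -0.35 in 1 iWAT female library. In column 10 it was -0.27 in 1 iWAT female library. The cytosolic ribosomal proteins, which are also short, averaged 91324 CPM in the iWAT male and 71641 CPM in the iWAT female libraries of column 7, and 90842 CPM in the iWAT female libraries of column 8. In column 9 they averaged 82324 CPM in the iWAT male libraries and stood at 83738 CPM in the iWAT female library. In column 10 they stood at 77168 CPM in the iWAT female library. What a column stands for is not given in the labels, and the part of transcript length or of the well in the sex difference was not tested. Markers of other cell types differed between the same groups. The 5 tested macrophage markers (2 called higher in males) were among 7 that summed to 1414 to 2419 CPM in iWAT males and 615 to 1094 CPM in females, and the 4 epithelial markers (2 tested, both called lower in males) summed to 0 to 8.31 CPM in males and 31.7 to 1405 CPM in females. Their part in the result was not tested.

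**Figure D5:**
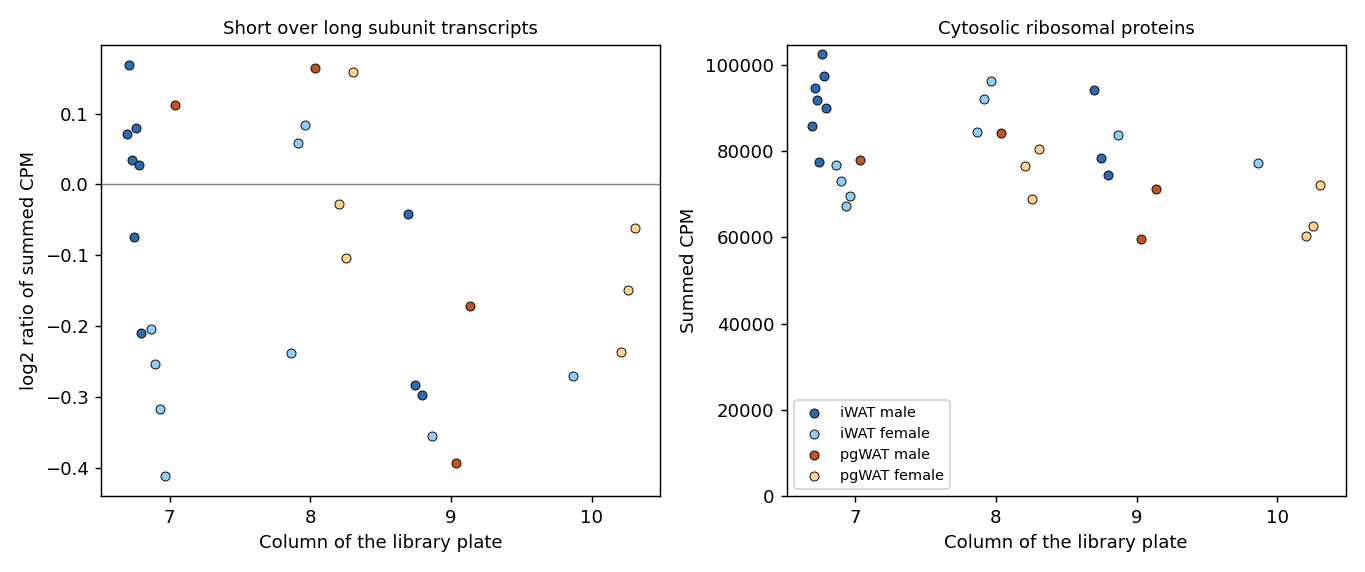
Log2 ratio of the summed CPM of the 38 short over the 38 long members (left) and summed CPM of cytosolic ribosomal proteins (right) in each library, by column of its well and coloured by group. In column 7 the iWAT male libraries average 0.01 and the iWAT female libraries -0.30 in the left panel, and 91324 and 71641 CPM in the right panel.

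Between pgWAT males and females, whose labels were in doubt for 5 of 10 libraries, 0 of 76 members were called (background 0.0113%). DESeq2 called 0 and limma-voom 0. At an unadjusted p below 0.05 there were 2 members, against 739 of all 8853 genes. The smallest p was that of Uqcrc2 (0.49 ± 0.20, FDR 0.498). Without pgWAT male 2 and 4 a single member, Uqcr11 of complex III, named after its values were seen, was called higher in males (background 3.97%).

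Promoter sequences were taken for 67 of the 84 symbols from RefSeq (GRCm38.p6), as 250 bases before to 50 after each start (72 promoters). Many respiratory chain genes are known targets of the nuclear respiratory factors NRF1 and NRF2, the latter an ETS-family factor, and of YY1. The NRF1 core CGCANGCG, sought on both strands, was present in 28 of 72 member promoters (38.9%) and in 8.21% of all 32851 promoters. The ETS core CCGGAAG was present in 16 (22.2%, against 8.86%), the YY1 core AAGATGG in 10 (13.9%, against 6.34%) and the SP core GGGCGG in 28 (38.9%, against 35.7%). No motif contains another. The estrogen-related receptor motif TCAAGGTCA was present in 2 (2.78%, against 0.423%). These are descriptions of letters, and base composition was not matched. Of the 16 members called lower in pgWAT 13 had a promoter in the table, and 5 of these 13 held the NRF1 core. Of the 4 members called under all alternatives, 3 had a promoter in the table, Ndufv3 (higher), Sdhb and Ndufa9 (both lower). Their 150 bases before the start are printed, with those of Sdhd as an example of a member that holds matches, 5′ to 3′ on the gene's strand and with matches to the NRF1, ETS and YY1 cores in capitals. Their positions are Ndufv3 chr17:31519965-31520114 (plus strand), Sdhb chr4:140961121-140961270 (plus strand), Ndufa9 chr6:126849145-126849294 (minus strand), Sdhd chr9:50603850-50603999 (minus strand).
Ndufv3: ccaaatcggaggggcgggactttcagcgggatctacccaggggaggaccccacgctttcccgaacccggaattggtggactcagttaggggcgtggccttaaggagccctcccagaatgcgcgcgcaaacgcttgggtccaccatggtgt
Sdhb: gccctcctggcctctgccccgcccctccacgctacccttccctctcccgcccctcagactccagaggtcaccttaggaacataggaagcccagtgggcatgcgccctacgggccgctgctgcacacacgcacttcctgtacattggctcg
Ndufa9: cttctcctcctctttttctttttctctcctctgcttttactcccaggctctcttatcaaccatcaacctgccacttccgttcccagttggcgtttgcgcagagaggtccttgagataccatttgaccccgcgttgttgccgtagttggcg
Sdhd: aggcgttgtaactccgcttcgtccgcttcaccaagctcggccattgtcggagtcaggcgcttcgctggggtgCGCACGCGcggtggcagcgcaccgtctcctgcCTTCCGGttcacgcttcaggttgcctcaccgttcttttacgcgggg
Sdhd holds an NRF1 and an ETS match in these bases, while Ndufv3, Sdhb and Ndufa9 hold none.

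Other genes of the pathway showed the following counts in pgWAT minus iWAT, beside the background of 38.1% called. Leaving aside mt-Co2, 1 of 11 tested mitochondrially encoded subunits was higher (mt-Co1, 0.29 ± 0.10, FDR 0.0215) and 2 were lower, among them mt-Nd1 (-0.29 ± 0.10, FDR 0.024), with a median of -0.17. The gene mt-Co2 was listed at 0 in all 10 pgWAT and in 13 of 19 iWAT libraries and at 228 to 761 counts in the others, so it is not counted as a call and no fold is given. Of 37 tested assembly factors 1 was higher (Tmem70, an ATP synthase factor, 0.92 ± 0.31, FDR 0.0181) and 3 were lower, among them the complex I factor Ndufaf2 (-0.73 ± 0.18, FDR 0.00119) and Cox10, an enzyme of heme A synthesis (-0.65 ± 0.19, FDR 0.00654). Of 5 electron carriers 2 were lower, cytochrome c (Cycs, -0.74 ± 0.21, FDR 0.00476) and Etfb (-0.30 ± 0.10, FDR 0.0138). Of 17 citric acid cycle genes 6 were lower and 0 higher (median -0.24), led by citrate synthase (Cs, -0.48 ± 0.09, FDR 7.31e-05) and fumarase (Fh1, -0.63 ± 0.12, FDR 8.23e-05). Of 76 mitochondrial ribosomal proteins 16 were lower and 1 higher (median -0.17), of 23 import genes 3 were lower and 0 higher (median -0.23), and of 9 tested regulators of mitochondrial biogenesis 0 were called (median -0.24). The regulator Ppargc1a was below the filter, with 3 counts in all.

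Cell type and growth markers moved with the depots as well. Of 12 proliferation genes, 10 were lower in pgWAT (median -0.79), and the list's sum was 1309 to 2043 CPM in iWAT and 651 to 1509 CPM in pgWAT. Of 77 cytosolic ribosomal proteins 38 were lower and 0 higher (median -0.27). Fibroblast markers were higher in 5 of 6 cases, tested macrophage markers in 3 of 5 and smooth muscle markers in 3 of 3, and mesothelial markers were higher in 2 and lower in 1 of 3. The parts of these in the differences of the members were not tested.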

How the data were processed

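Bulk Smart-seq3 libraries of cultured mouse SVF were analysed. Per the labels and methods, the authors made the expected counts of each gene with Salmon 1.9.0 on GRCm39 (reads with and without UMI together) after libraries with few genes were removed. These estimated counts were rounded to whole numbers, 96.5% of all values and 85.1% of those above 0 being exactly whole before. The authors used technical wells as replicates. Of 56953 rows 52029 (91.4%) matched a symbol of GENCODE vM21 (GRCm38), which also gave transcript lengths, so no coordinates of the counted genes are given. Totals ranged from 315316 to 1102234, and intervals and limits cover counting error only. edgeR 4.0.16 (R 4.3.3, TMM factors 0.948 to 1.05, filterByExpr, quasi-likelihood F test, two-sided) was fitted with 1 term per group over 29 libraries, with calls at a Benjamini-Hochberg FDR below 0.05 over all tested genes. Standard errors were derived from F. The fit was tested on simulated data. Members and lists were chosen with earlier results of these data known. Named members are, by rule, the highest and lowest level per complex, up to 4 called members per complex and direction by FDR, up to 4 per direction of each other contrast (or the smallest p), and the complex II and isoform genes. Other members, such as those of the sex comparison by well column, were named after their values were seen. Alternatives were other scalings (RLE, totals), no filter, DESeq2 1.42.0, limma-voom 3.58.1, well column, library total, and leaving out libraries.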

Additional observations from a re-analysis of the deposited data

Results flagged for a closer look

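Among the summed levels of the 5 complexes and the levels of the members named in the comparisons, 88 sets of values (1 group each) were searched for a library far from the others of its group, by the gap to its neighbour over the range of the group, and 4 were found. Chance alone gives about 1 in 20. Ndufa9 was high in iWAT male 3 (255 CPM) and in iWAT female 9 (221 CPM). Sdhb was low in iWAT male 9 (313 CPM), the library of the second lowest total. Sdhd was high in iWAT female 9 (322 CPM). The Ndufa9 and Sdhb calls between depots were kept without each of these libraries, whereas the Sdhd call was lost without iWAT female 9 (FDR 0.0562).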

How the results depend on the processing

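No paired analysis was possible because the labels carry no replicate numbers. The share of all genes called moved with the setting. Between males it was 20.3% in the main fit, 8.49% without pgWAT male 2 and 4 and 23.2% in well column 9 alone. That share is not given for every setting below, so a change in the number of members called may follow the total called. The 17 depot calls became 7 without the 5 pgWAT libraries, 6 without pgWAT male 2 and 4 and 31 without pgWAT male 1 and 3 (both pairs were chosen after seeing the data), and ranged from 11 to 24 with single libraries left out, while RLE, total counts, no filter, DESeq2, limma-voom, well column, library total and depot as the only factor gave 14 to 24. Between males, the 3 calls became 9 with total counts, with DESeq2 and with well column, 8 with limma-voom, 1 with no filter, 21 in well column 9 alone, 0 without the 5 libraries or pgWAT male 2 and 4, 24 without pgWAT male 1 and 3, and 0 to 11 with single libraries left out (0 without pgWAT male 2 or 4, 11 without pgWAT male 1). Between females, the 9 calls became 3 without the 5 libraries, 5 in well column 8 alone and 5 to 11 with single libraries left out. In iWAT, the 0 sex calls became 13 with well column, 5 in column 7 alone, 4 without the 5 libraries, 2 with DESeq2, 1 with no filter, 2 without either pgWAT male pair, and 0 to 2 with single libraries left out. In pgWAT the 0 sex calls became 1 without pgWAT male 2 and 4 and stayed at 0 without the 5 libraries. The 0 interaction calls became 1 without pgWAT male 1 and 3. Both comparisons had 0 to 0 calls with single libraries left out. The log2 ratio of summed CPM, pgWAT over iWAT, complex II, moved from -0.24 to -0.0606 when Sdha, Sdhb and Sdhd were left out of the sum, since Sdhc alone remained. The median depot difference stayed negative in each setting (-0.25 to -0.01) and the median iWAT sex difference positive. No named call reversed. Causes were not tested unless stated. Wells are technical, experiments cannot be assigned to them, and members near 10 CPM rest on few counts.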
